A study of Arabidopsis thaliana with 28 samples.

Results

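The comparison described here asks what the loss of the histone deacetylase HDA9 adds in Arabidopsis thaliana seedlings that already carry mutations in the H2A.Z genes. It sets 3 libraries of hda9-1 h2a.z-5 against 3 libraries of h2a.z-5, 6 of the 28 RNA sequencing libraries of the series. Both groups carry the h2a.z-5 combination, per the labels an HTA8 allele with an inserted base and a shifted reading frame together with the insertion lines SALK_054814 and SALK_017235; hda9-1 is the insertion line SALK_007123, and is the allele that only the combined mutant holds. The labels name hda9-1 h2a.z-5 without listing its alleles again, and the series text writes nrp1-1 nrp2-2 in the place of h2a.z-5; the sample labels were followed. Seedlings of all groups were 12 days old and grew on soil in long days at about 21 °C, after 4 days of stratification at 4 °C. Col-0, the wild type, and hda9-1 alone, with 3 libraries each, serve below as the same contrast with the H2A.Z genes intact. Each mutant is a fixed line whose alleles are present throughout the plant, so effects at a gene and effects by way of development cannot be told apart. The series text calls the replicates independent and biological.

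HDA9 is a class I histone deacetylase of the RPD3 type. It removes acetyl groups from histone H3 and acts with the SANT-domain protein POWERDRESS (PWR) and the WD40 protein HOS15. In Arabidopsis it is known for a part in leaf senescence and for restraining flowering, with AGL19 among its described targets. It also takes part in the response to warmth through auxin synthesis genes. H2A.Z is a variant of histone H2A that the SWR1 complex places next to transcription start sites; it is known for the control of FLC and its relatives and of genes that respond to temperature and pathogens. Here HTA8, HTA9 and HTA11 encode the H2A.Z proteins that are mutated, while HTA4 is a further H2A.Z-like gene.

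Windows of 200 bases upstream of the annotated starts of 5 genes are printed first, for the genes on which the results turn. AT2G04070 and AT2G04080 are neighbouring genes that rose together, AT3G29120 rose with the smallest p of all rises, MAF5 had the largest fall after HDA9 among called genes averaging 1 CPM or more whose groups did not overlap, and HDA9 is the mutated gene itself. They are read 5′ to 3′ from TAIR10.1 (RefSeq), on the gene's strand, and end at the base before the annotated start. The windows are chr2:1355884-1356083 (minus strand), chr2:1359404-1359603 (minus strand), chr3:11098305-11098504 (plus strand), chr5:25997304-25997503 (plus strand) and chr3:16230010-16230209 (minus strand). On either strand, capitals mark TATAAA. They likewise mark TTGAC, the core of the W-box that WRKY factors bind, and the evening element of the clock, AAAATATCT. CACGTG (the G-box) and TGTCTC (an auxin response element) were searched too and are in none of these windows.
AT2G04070: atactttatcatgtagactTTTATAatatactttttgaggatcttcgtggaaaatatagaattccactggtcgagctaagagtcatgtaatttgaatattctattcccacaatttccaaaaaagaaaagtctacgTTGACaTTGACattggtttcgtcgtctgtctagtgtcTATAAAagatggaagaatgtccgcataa
AT2G04080: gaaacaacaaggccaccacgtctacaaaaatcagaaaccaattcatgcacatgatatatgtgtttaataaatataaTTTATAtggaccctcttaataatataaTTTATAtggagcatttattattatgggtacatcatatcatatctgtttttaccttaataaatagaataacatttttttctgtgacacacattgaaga
AT3G29120: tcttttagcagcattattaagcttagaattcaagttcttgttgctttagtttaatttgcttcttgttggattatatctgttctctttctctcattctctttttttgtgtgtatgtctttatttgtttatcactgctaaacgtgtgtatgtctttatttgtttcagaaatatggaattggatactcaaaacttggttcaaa
MAF5: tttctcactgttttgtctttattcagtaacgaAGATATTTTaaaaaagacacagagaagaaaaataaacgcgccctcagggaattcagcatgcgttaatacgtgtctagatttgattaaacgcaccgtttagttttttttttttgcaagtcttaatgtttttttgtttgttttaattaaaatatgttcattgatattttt
HDA9: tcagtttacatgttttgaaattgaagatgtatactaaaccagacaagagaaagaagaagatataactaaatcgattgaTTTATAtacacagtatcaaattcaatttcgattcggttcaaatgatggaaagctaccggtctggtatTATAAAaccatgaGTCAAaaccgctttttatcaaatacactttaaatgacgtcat
The AT2G04070 window holds TATAAA 181 and 28 bases before the start and neighbouring copies of TTGAC 65 and 59 bases before it, whereas the AT2G04080 window has TATAAA at 124 and 97 bases and no TTGAC. The HDA9 window holds TATAAA at 122 and 55 bases and TTGAC at 42, the MAF5 window AAAATATCT at 168, and the AT3G29120 window none of the searched motifs. TTGAC was in 42.4% of the windows of genes that rose, 36.7% of those that fell and 38.4% of all 20770 tested genes with a window. The corresponding shares were 40.5%, 37.5% and 39.3% for TATAAA, 7.06%, 6.09% and 6.28% for CACGTG, 9.03%, 12.0% and 8.54% for TGTCTC, and 1.97%, 2.97% and 1.98% for AAAATATCT. These are descriptions with no test.

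The 6 libraries held between 36825383 and 39594833 gene counts, and levels are given in CPM (counts per unit of library size, a library's size being its total count times its TMM factor from edgeR). One library, hda9-1 h2a.z-5 replicate 3, stood apart. On the first principal component of the 6 libraries, which held 46.3% of the variance, it lay at 86.7 and the others between -42.2 and -3.15. Its TMM factor was 1.19 and its 10 most abundant genes took 9.03% of counts; hda9-1 replicate 3 was next, at 1.08 and 9.10%, and in the other 16 genotype libraries the factor was 0.870 to 1.08 and the share 11% to 14.7%. In 946 of the 1570 genes called below (60.3%), it was the hda9-1 h2a.z-5 library that lay farthest out in the direction of the change. Results that rest on it are given with and without it, unless the lack of such values is stated. Photosynthesis genes summed to between 128543 and 152245 CPM in h2a.z-5 and between 85830 and 145577 CPM in hda9-1 h2a.z-5. The 14 root markers summed to 67.1 to 104 CPM and 56.9 to 89.8 CPM, and 5 of them had no read in either group, the root hair genes RHD6, RSL4 and EXP7 and the root stem cell genes PLT1 and PLT2. The other 9 had reads in these samples, which are labelled as seedlings, and SCR, a gene that shoots express too, held 48.6 to 87.4 CPM of the sum. In bulk tissue, fewer cells of a type and less RNA per cell cannot be told apart.

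The targeted genes were read first. HDA9 (AT3G44680, chromosome 3, 16226519 to 16230009 in TAIR10.1) stood at 13.2, 15.5 and 15.4 CPM in the 3 h2a.z-5 libraries and at 1.08, 1.34 and 0.617 CPM in the 3 hda9-1 h2a.z-5 libraries. The groups did not overlap, and replicate 3 was the lowest of all. HDA9 fell by 3.88 on the log2 scale (SE 0.19, edgeR adjusted p = 1.14e-08), against 3.1 (SE 0.18) in hda9-1 alone, where it went from 13.9 ± 1.71 to 1.62 ± 0.111 CPM (SD, n = 3). HTA8 was at 5.05, 6.40 and 6.75 CPM in h2a.z-5 and at 3.07, 6.19 and 2.08 CPM in the combined mutant, and HTA11 at 1.27, 2.05 and 1.60 against 1.14, 1.34 and 0.638 CPM. Both groups overlapped for each gene, and neither difference passed (adjusted p = 0.0631 and 0.141), although HTA8 did without hda9-1 h2a.z-5 replicate 2 (0.00559). HTA9 also overlapped, at 52.5 ± 4.43 and 57.9 ± 19.7 CPM (adjusted p = 0.742). All 3 genes were lower in both mutants than in Col-0, where HTA8 had 16.9 ± 1.91, HTA9 144 ± 9.19 and HTA11 61.4 ± 9.06 CPM, with no test made here. HTA4, which is not among the mutated genes, went from 0.755, 0.984 and 1.174 CPM to 0, 0.438 and 0.489 CPM (log2 fold change -1.75, SE 0.50, adjusted p = 0.0466); it missed the threshold without h2a.z-5 replicate 1 (adjusted p = 0.139) or 3 (0.169) and without hda9-1 h2a.z-5 replicate 1 (0.0548) or 2 (0.0983). HDA10 and HDA17, near copies of HDA9 on the same chromosome, held too few reads to be tested.

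**Figure D1:**
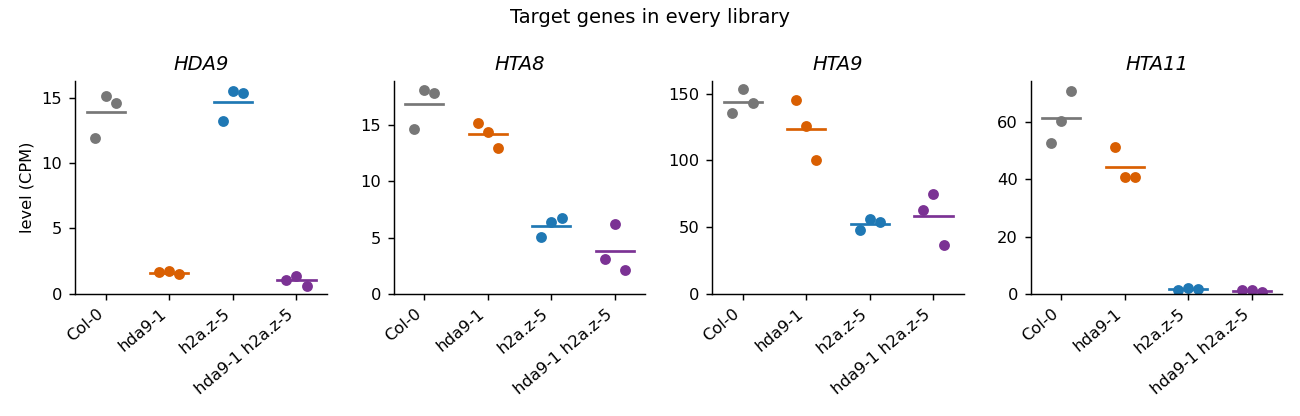
Levels in CPM (linear axes) of HDA9 and the mutated H2A.Z genes in every library of 4 genotypes; points are libraries, replicates 1 to 3 from left to right, and lines are group means. HDA9 lay between 0.617 and 1.71 CPM in both genotypes with hda9-1 and between 12.0 and 15.5 CPM in the others, while HTA8, HTA9 and HTA11 were low in both genotypes with h2a.z-5.

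With hda9-1 added to h2a.z-5, 864 of 20771 genes tested were higher (4.16%) and 706 were lower (3.4%) at a Benjamini-Hochberg adjusted p under 0.05 (edgeR quasi-likelihood F test, 18 libraries, replicate number as block). Their median change in size was 0.63 on the log2 scale, and 353 exceeded 1, 202 upwards and 151 downwards. Every library of one group lay beyond every library of the other for 605 of the genes called higher and 569 of those called lower. Both the calls and this separation rest on the same values, so it is no separate support. The share of all genes tested whose groups lay apart is not given here. The number of calls depended on how the libraries were used. Without the replicate block 133 genes passed, all of them among the 1570, and 4 passed when the 6 libraries were fitted alone. Leaving out h2a.z-5 replicate 1, 2 or 3 left 498, 812 or 515 calls, and leaving out hda9-1 h2a.z-5 replicate 3 left 889, of which 699 were shared; all 1570 genes kept their sign without that replicate. A total of 325 genes, 142 higher and 183 lower, passed in each of the 6 fits that left out one of these libraries, and the genes named below belong to it unless a lost call is stated. Over all the gene lists described below, 62 members were called, and 8 without the block.

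Among genes averaging 1 CPM or more over the 6 libraries whose groups did not overlap, the largest rise was that of AT2G04070, which encodes a MATE efflux transporter. It had 0 reads in all 3 h2a.z-5 libraries and 2.69, 1.26 and 2.40 CPM in the combined mutant, at least 84.3-fold higher when the 0 is read as 3 reads over the group (adjusted p = 0.0039). Its neighbour AT2G04080, with no gene between them and also a MATE transporter, rose from 2.69, 2.62 and 3.5 CPM to 16.9, 19.5 and 24.1 CPM (log2 fold change 2.77, SE 0.22, adjusted p = 1.18e-05). The groups lay apart for both because the choice required it. Their Col-0 levels were 2.37 ± 1.47 and 21.4 ± 10.4 CPM. Reads that match both copies cannot be assigned with certainty. AT3G29120, annotated as a pseudogene, rose from 0.307, 0.570 and 0.454 CPM to 6.30, 7.06 and 5.42 CPM (log2 fold change 3.83, SE 0.18, adjusted p = 1.14e-08), and its Col-0 level was 5.44 ± 0.802 CPM. QQS (AT3G30720), an orphan gene of carbon and nitrogen allocation whose expression is known to vary with DNA methylation, rose from 0.850, 0.622 and 0.774 CPM to 7.46, 6.11 and 6.17 CPM (log2 fold change 3.13, SE 0.42, adjusted p = 0.000899). The Col-0 libraries held 2.52 ± 0.761 CPM of QQS, between both mutants. HDA9, AT3G29120, QQS and AT2G04080 are the 4 genes that passed on the 6 libraries alone.

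Further rises among the 14 started from various levels. AT1G03710, a cystatin-like gene, rose from 0.567, 0.259 and 0.694 CPM to 8.88, 3.3 and 2.70 CPM, and AT5G62280, of a domain family of unknown function, from 0.307, 0.648 and 0.587 CPM to 2.17, 3.27 and 4.89 CPM. NAP (AT1G69490), a NAC factor that promotes leaf senescence, rose from 0.992, 2.69 and 2.88 CPM to 10.2, 8.38 and 20.2 CPM (log2 fold change 2.51, SE 0.44, adjusted p = 0.00524). AT1G80440, the F-box gene KISS ME DEADLY 1, which restrains the cytokinin response, rose from 0.685, 5.67 and 1.87 CPM to 14.6, 11.9 and 16.2 CPM (adjusted p = 0.00841, and 0.0871 without the block). The log2 fold changes of these genes lay between 2.51 and 3.2. AT2G40960, a single-stranded nucleic acid binding R3H protein gene, rose by 2.64 and the pseudogene AT3G21030 by 2.35 on the log2 scale. AT4G18900, a WD40 repeat gene, averaged 1.72 ± 0.501 CPM in h2a.z-5 and 8.46 ± 2.57 CPM in the combined mutant, against 0.0435 ± 0.0506 CPM in Col-0 (log2 fold change 2.30, SE 0.34, adjusted p = 0.00192). The remaining 3 of the 14 rises, AT3G01345, PR1 and RLP19, lost their calls when certain libraries were left out. AT3G01345 was at 0.955, 0.335 and 11.9 CPM in the combined mutant, and its log2 fold change of 5.18 became 2.55 without replicate 3 (adjusted p = 0.0355 and 0.274); it also lost its call without h2a.z-5 replicate 1, 2 or 3 (0.0959, 0.0954 and 0.157). RLP19, a receptor-like protein gene, was at 2.56, 5.03 and 26.4 CPM there; its log2 fold change was 2.26 with and 1.15 without replicate 3 (adjusted p = 0.0124 and 0.0227), and it missed the threshold without h2a.z-5 replicate 3 (0.0904).

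Among genes averaging 1 CPM or more whose groups did not overlap, the falls were led, after HDA9, by MAF5 (AT5G65080). MAF5 is a MADS-box repressor of flowering related to FLC. It went from 1.65, 4.02 and 3.74 CPM to 0.310, 0.335 and 0.255 CPM, a log2 fold change of -3.34 (SE 0.50, adjusted p = 0.00207). XTH19 (AT4G30290), a xyloglucan endotransglucosylase of the cell wall, fell from 15.9, 16.5 and 15.2 CPM to 4.13, 2.81 and 4.06 CPM (log2 fold change -2.11, SE 0.21, adjusted p = 0.00015). HXK3 (AT1G47840), a hexokinase, fell from 4.89, 4.90 and 5.10 CPM to 1.37, 1.60 and 0.744 CPM, and AT1G77330, the ACC oxidase gene ACO5 of ethylene synthesis, from 2.50, 2.54 and 2.46 CPM to 0.697, 0.670 and 0.638 CPM. The groups lay apart for these genes because the choice required it. AT1G29110, a cysteine proteinase gene, fell by 2.85 and the non-coding AT1G09475 by 2.23 on the log2 scale, the latter with an adjusted p of 0.000475, and 0.0721 without the block. The germin-like genes AT5G39160 and GER2, with 3 genes between them, fell by 1.82 and 1.73; they are near copies, so their reads may be split between them. AT1G34315, AT2G29170, AT1G35320 and the pseudogene AT3G42806 fell by 1.86 to 1.95 on that scale. AT2G31141, the smallest of the 14 falls (log2 fold change -1.64, adjusted p = 0.0461), lost its call in 5 of the 6 fits that left out a library: without h2a.z-5 replicate 1, 2 or 3 (0.0778, 0.139 and 0.112) and without hda9-1 h2a.z-5 replicate 2 or 3 (0.1 and 0.145).

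**Figure D2:**
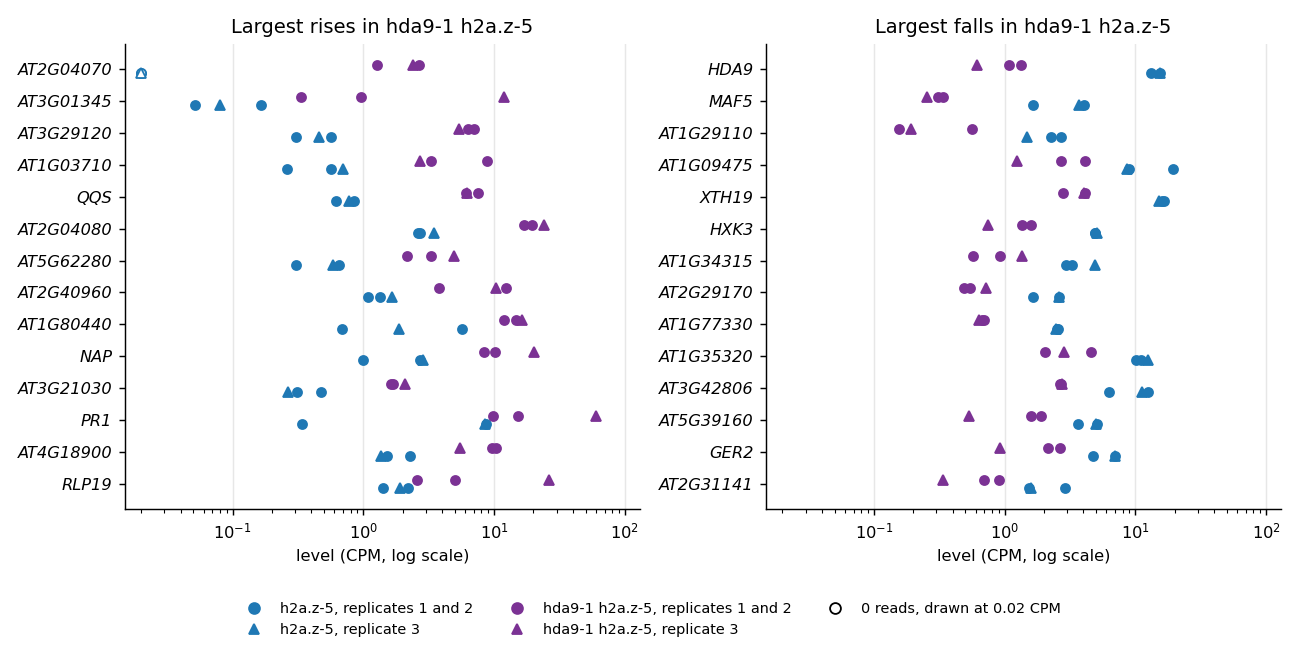
Levels in CPM (log axis) of the 14 largest rises and the 14 largest falls, HDA9 included, in each library of both groups; triangles mark replicate 3 and open symbols 0 reads. The groups are apart for every gene, since the choice required it, and replicate 3 of the combined mutant lies far out for AT3G01345, PR1 and RLP19.

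Flowering time genes moved in both directions. Of 20 tested members 4 rose and 1 fell, against 4.16% and 3.4% of all genes, and the median log2 fold change of the list was 0.03, with 0.01 over all genes. The fall was that of MAF5. TEM2, which with TEM1 represses FT, rose from 7.46, 36.0 and 15.5 CPM to 54.6, 55.0 and 56.4 CPM (log2 fold change 1.73, SE 0.33, adjusted p = 0.00771). AGL19, a promoter of flowering and a described HDA9 target, rose from 0.378, 0.414 and 0.213 CPM to 0.955, 1.13 and 1.66 CPM (log2 fold change 1.92, adjusted p = 0.0084, and 0.0555 without h2a.z-5 replicate 3). TEM1 and SOC1, a floral integrator, rose by 1.44 and 0.48. Both calls were lost without h2a.z-5 replicate 1 (adjusted p = 0.111 and 0.0749), h2a.z-5 replicate 3 (0.0901 and 0.132) and hda9-1 h2a.z-5 replicate 3 (0.122 and 0.12), and that of SOC1 also without h2a.z-5 replicate 2 (0.0805). The count of rises was 2, 1 and 2 without h2a.z-5 replicate 1, h2a.z-5 replicate 3 and hda9-1 h2a.z-5 replicate 3. FT itself, the mobile flowering signal, was at 1.61, 1.87 and 1.79 CPM against 3.46, 2.68 and 1.77 CPM and did not pass (adjusted p = 0.217), and FLC reached at most 0.362 CPM in these libraries. MAF4, next of kin to MAF5, was at 0.708, 0.907 and 1.01 CPM against 0.362, 0.619 and 0.234 CPM, with an adjusted p of 0.0629.

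Several auxin genes were higher. In the auxin response list 6 of 18 tested members rose and none fell, against 4.16% and 3.4% of all genes tested. The list's median log2 fold change was 0.61. GH3.5, which conjugates auxin to amino acids, rose from 4.58, 3.13 and 4.19 CPM to 12.3, 8.97 and 6.66 CPM (log2 fold change 1.22, SE 0.20, adjusted p = 0.00395). The Aux/IAA repressor gene IAA19 rose from 2.27, 2.56 and 1.89 CPM to 3.87, 4.12 and 3.51 CPM (log2 fold change 0.78, SE 0.15, adjusted p = 0.008). The other 4 were the Aux/IAA genes IAA1, IAA2, IAA6 and IAA29, and each lost its call without h2a.z-5 replicate 3 and 1 or more of the other libraries. IAA2 was at 33.1, 41.4 and 89.5 CPM in the combined mutant, and its log2 fold change of 1.01 became 0.42 without replicate 3. The count of rises was 3 without h2a.z-5 replicate 1, 2 without h2a.z-5 replicate 3, and 4 without h2a.z-5 replicate 2, hda9-1 h2a.z-5 replicate 2 or hda9-1 h2a.z-5 replicate 3, and 8 passed without hda9-1 h2a.z-5 replicate 1. Upstream of them, YUC5 (AT5G43890), an enzyme of auxin synthesis, rose from 0.236, 0.130 and 0.133 CPM to 1.06, 0.541 and 0.723 CPM (log2 fold change 2.19, SE 0.37, adjusted p = 0.00448). YUC8, a described HDA9 target in warmth, was at 0.637, 0.285 and 0.133 CPM against 0.826, 0.825 and 0.510 CPM and did not pass (adjusted p = 0.0772). With HFR1, a shade repressor, and PRE1, a growth regulator, 3 of 14 tested genes of the PIF, YUCCA and shade list rose. YUC5 was the one left in each fit without h2a.z-5 replicate 1, 2 or 3 or hda9-1 h2a.z-5 replicate 3.

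Among hormone and wall genes the changes went both ways. Of all genes tested, 4.16% were called higher and 3.4% lower. RGL2, a DELLA repressor of gibberellin responses, fell from 21.6, 16.8 and 20.6 CPM to 11.1, 11.5 and 9.17 CPM (log2 fold change -0.90, SE 0.15, adjusted p = 0.00348), and BAS1, which inactivates brassinosteroids, rose from 2.48, 2.56 and 2.16 CPM to 5.63, 4.00 and 4.62 CPM (log2 fold change 0.97, SE 0.17, adjusted p = 0.00583). With the gibberellin synthesis gene GA20OX1, 2 of 18 tested members of that list rose and 1 fell; the call of GA20OX1 was lost without h2a.z-5 replicate 1, 2 or 3 (adjusted p = 0.091, 0.0586 and 0.0764) or hda9-1 h2a.z-5 replicate 3 (0.0849). Of 22 XTH and expansin genes 2 rose (EXPA8 and XTH24) and 2 fell (XTH19 and EXPA5); of these calls, that of XTH19 held in each fit, and no rise was left without h2a.z-5 replicate 1, 2 or 3 or hda9-1 h2a.z-5 replicate 3. In the abscisic acid list 3 of 16 rose, among them CYP707A4, a catabolic enzyme, from 2.76, 2.36 and 2.75 CPM to 6.07, 4.51 and 4.68 CPM (log2 fold change 0.95, adjusted p = 0.0124, and 0.0643 without h2a.z-5 replicate 1); without h2a.z-5 replicate 1 no call was left in the list, and 1 was left without h2a.z-5 replicate 3 or hda9-1 h2a.z-5 replicate 3.

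Several immune receptor genes were higher, by small amounts. Of 17 tested genes in the NLR list, the intracellular receptors that recognise pathogen effectors, 8 rose and none fell, with a median log2 fold change of 0.56. The count was 3 without h2a.z-5 replicate 1, 1 without h2a.z-5 replicate 3, 3 without hda9-1 h2a.z-5 replicate 3 and 0 without the block. RPP1 rose from 33.6, 22.7 and 34.5 CPM to 43.7, 41.7 and 74.1 CPM (log2 fold change 0.80, SE 0.15, adjusted p = 0.00732, and 0.208 without the block). RPS6 and SNC1 rose by 0.82 and 0.63, and lost their calls without h2a.z-5 replicate 3 (adjusted p = 0.0555 and 0.0656). Taking all genes whose annotation names the NBS-LRR class, a group formed after values had been seen, 23 of 97 rose and 1 fell, with a median of 0.53; in hda9-1 against Col-0, 20 rose and 2 fell. Their number of rises was 10, 15 and 6 without h2a.z-5 replicate 1, 2 and 3 and 39 without hda9-1 h2a.z-5 replicate 1. Without hda9-1 h2a.z-5 replicate 3 it was 9, with a median of 0.26, without the block it was 1, and on the 6 libraries alone it was 0 of 89 tested. Some are near-identical copies whose reads may be split, AT1G58807 with AT1G59124 and AT1G58848 with AT1G59218 among those called; the call of AT1G59218 was lost without h2a.z-5 replicate 1, 2 or 3 or hda9-1 h2a.z-5 replicate 3 (adjusted p between 0.0507 and 0.0782). Both called genes among the neighbours of HDA9 were of this class: AT3G44630 rose from 25, 21.0 and 23.1 CPM to 42.4, 35.2 and 61.6 CPM (log2 fold change 0.99, SE 0.13, adjusted p = 0.00112), and AT3G44670 by 0.88 (adjusted p = 0.0118; 0.0558 and 0.0567 without h2a.z-5 replicate 2 and 3). They are 2 of 7 tested genes among the 10 on either side of HDA9. Around HTA8, HTA9 and HTA11 the counts were 2 of 16, 3 of 13 and 1 of 10. Among all genes tested 4.16% were called higher and 3.4% lower. RPP1 (chromosome 3, 16090460 to 16096477) lies outside these 10 but on the chromosome of HDA9 (16226519 to 16230009). For AT3G44630, AT3G44670 and RPP1, the part of their position near the insertion was not tested.

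Of 23 tested salicylic acid defence genes 4 rose and none fell, against 4.16% and 3.4% of all genes tested. The list's median log2 fold change was 0.79. PR1, the marker of that pathway, was at 8.59, 0.337 and 8.51 CPM in h2a.z-5 and at 15.2, 9.74 and 59.8 CPM in the combined mutant (log2 fold change 2.35, SE 0.62, adjusted p = 0.0336), and it also lost its call without h2a.z-5 replicate 2 (0.0968). NPR3 and NPR4, the salicylic acid receptors that repress transcription, and WRKY70 were the others. Replicate 3 was the highest library for each of the 4 genes, and without it none passed. None passed without h2a.z-5 replicate 1 or 3 either, and 9 passed without hda9-1 h2a.z-5 replicate 2. In hda9-1 against Col-0, 13 of the 23 were called higher, and PR1 went from 26.9 ± 15.8 to 196 ± 115 CPM. The marker sums for other tissue, depth and the RNA make-up of replicate 3 are given above; their part in these changes was not tested.

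Of 15 tested leaf senescence genes 3 were called higher and none lower, against 4.16% and 3.4% of all genes tested. The list's median log2 fold change was 0.52. NAP was the call that held in each fit. NAC6, known as ORE1, a regulator of senescence, was at 0.283, 1.14 and 2.24 CPM against 2.27, 1.86 and 7.04 CPM, so that the groups overlapped (log2 fold change 1.67, adjusted p = 0.0346, and 0.128, 0.0899 and 0.193 without h2a.z-5 replicate 1, h2a.z-5 replicate 2 and hda9-1 h2a.z-5 replicate 3). The count was 1 without h2a.z-5 replicate 1 or hda9-1 h2a.z-5 replicate 3, and 2 without h2a.z-5 replicate 2 or 3 or hda9-1 h2a.z-5 replicate 2. SAG12, the marker of late senescence, had no read in the 6 libraries. Among 25 autophagy genes 4 rose and none fell, with ATG8F, which coats autophagosomes, at 35.5, 34.1 and 35.9 CPM against 48.3, 51.5 and 54.0 CPM (log2 fold change 0.54, SE 0.11, adjusted p = 0.0119, and 0.0553 without h2a.z-5 replicate 3). The count of rises was 1 without h2a.z-5 replicate 1, 0 without h2a.z-5 replicate 3 and 1 without hda9-1 h2a.z-5 replicate 3.

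Of 5 tested genes of the seed maturation list 2 were called lower, FUS3 and LEC2, both at very low levels. A positive log2 fold change was found for 2 of the 5. Over all genes tested 4.16% were called higher and 3.4% lower. FUS3, a master regulator of seed maturation, had 25 reads over the h2a.z-5 libraries and 1 over those of the combined mutant, a ratio of 26.3 with an interval of 4.30 to 1079 (95%, exact, counting error only; adjusted p = 0.00485). LEC2, a further regulator of embryo identity, was at 0.425, 0.337 and 0.454 CPM against 0.103, 0.103 and 0.106 CPM (log2 fold change -1.92, adjusted p = 0.0355); the call was lost whichever of the 6 libraries was left out, at adjusted p between 0.0579 and 0.146. The list's median was -0.19, and 0.08 without hda9-1 h2a.z-5 replicate 3. AGO5, an Argonaute of reproductive tissue in wild-type plants, went from 7.74, 4.90 and 6.24 CPM in h2a.z-5 to 4.24, 1.57 and 1.00 CPM with hda9-1 added, the wild type having 0.0959 ± 0.0308 CPM (log2 fold change -1.58, SE 0.27, adjusted p = 0.00448). The Col-0 level of AGO5 is given with no test against h2a.z-5. Of 9 tested Argonaute genes AGO5 was the 1 that fell and AGO2 the 1 that rose (log2 fold change 0.63, adjusted p = 0.0213, and 0.107 and 0.0829 without h2a.z-5 replicate 1 and 3).

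Few chromatin genes were called. PWR (AT3G52250), the partner of HDA9, rose from 14.2, 9.69 and 14.3 CPM to 21.0, 16 and 26.8 CPM (log2 fold change 0.74, SE 0.13, adjusted p = 0.0056, and 0.288 without the block), while the class I deacetylase genes HDA6, HDA19 and HDA7 did not pass (adjusted p = 0.259, 0.418 and 0.539). HDA7 had 7 reads over the h2a.z-5 libraries and 14 over those of the combined mutant. HOS15, a further partner of HDA9, did not pass either (adjusted p = 0.324). In the list of SWR1, INO80 and chaperone genes 1 of 15 rose (MBD9, log2 fold change 0.40, adjusted p = 0.0298), and without h2a.z-5 replicate 1, 2 or 3 or hda9-1 h2a.z-5 replicate 2 none did. No member was called among 10 histone acetyltransferase genes, 20 genes of DNA methylation, 17 photosynthesis genes, 17 cell cycle genes, 19 jasmonate genes, 16 cold and drought genes, 19 flavonoid genes and 6 root markers tested by edgeR. In the remaining lists the calls were 4 rises and 1 fall of 13 heat shock genes, 3 rises of 18 clock genes, 1 rise and 1 fall of 19 phosphate starvation genes, 1 fall of 14 floral genes (SEP1) and 1 fall of 15 glucosinolate genes (MYB76). Without h2a.z-5 replicate 1 or 3 no heat shock gene was called, without h2a.z-5 replicate 2 or hda9-1 h2a.z-5 replicate 3 there was 1, and the clock count was 0 without h2a.z-5 replicate 1 and 1 without h2a.z-5 replicate 2 or 3 or hda9-1 h2a.z-5 replicate 3. SEP1 was not called without h2a.z-5 replicate 1 (adjusted p = 0.107) or 3 (0.102) or without hda9-1 h2a.z-5 replicate 1 (0.0683) or 3 (0.0735), nor MYB76 without h2a.z-5 replicate 1 (0.0749) or hda9-1 h2a.z-5 replicate 3 (0.0735). Of the calls in these 5 lists, that of the phosphatase gene PAP17 held in each fit (log2 fold change -0.64, SE 0.12, adjusted p = 0.00838). Among gene families counted after values had been seen, 4 of 7 class II trehalose phosphate synthase genes rose, TPS8 from 4.82, 5.03 and 5.79 to 13.6, 12.0 and 40.3 CPM. The call of TPS9 (AT1G23870) was lost without h2a.z-5 replicate 1 or 3 (adjusted p = 0.0994 and 0.0618), that of TPS10 (AT1G60140) without h2a.z-5 replicate 3 (0.0547) and that of TPS11 (AT2G18700) without h2a.z-5 replicate 1 (0.0627), which left 2 of the 4 calls in either fit. Of 401 ribosomal protein genes 0 rose and 22 fell, against 4.16% and 3.4% of all genes tested, and their median was -0.14. No count with single libraries left out is given for this set. Other families were counted too. WRKY genes had 4 rises and 1 fall of 57 tested, MYB genes 4 and 2 of 73, and pentatricopeptide genes 5 and 2 of 426.

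**Figure D3:**
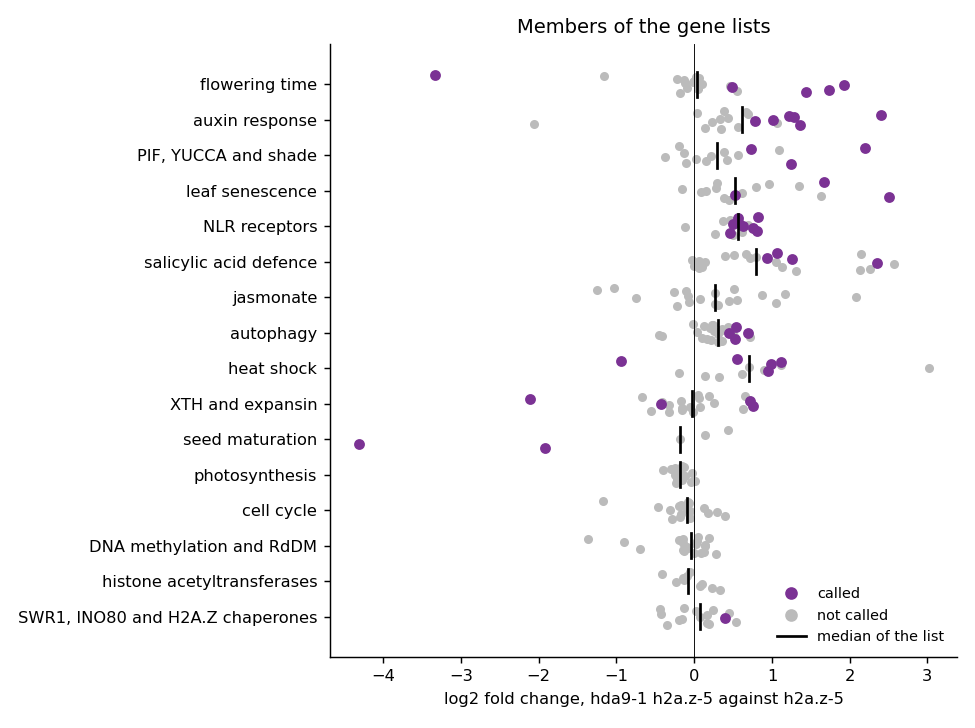
Log2 fold change of every tested member of 16 gene lists (x axis), with called genes in purple and the list's median as a bar. The medians of the NLR, auxin, salicylic acid, senescence and heat shock lists lie between 0.52 and 0.79, and that of the photosynthesis list at -0.18.

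Transposable elements (TEs) changed in small numbers. Of 1895 tested, 34 were higher (1.79%) and 38 lower (2.01%) in 17 libraries; hda6-1 replicate 1 was left out since its column has a count for 0 of 6677 elements named to chromosome 5, against 765 to 1003 in the other libraries. The total of 72 became 15 without the block, 17 on the libraries of the compared groups and 23 with all 18 libraries. It was 29, 26 and 24 without h2a.z-5 replicate 1, 2 and 3, and 34 without hda9-1 h2a.z-5 replicate 3. AT3TE58655 had 3 reads over the h2a.z-5 libraries and 129 over the combined mutant, a ratio of 40.9 (13.7 to 201, exact, counting error only; adjusted p = 0.000994). AT2TE06165 was at 2.05, 1.68 and 2.99 CPM in h2a.z-5 and had no read in the combined mutant, at least 92.5-fold lower (adjusted p = 0.000205); the Col-0 libraries had none either. AT3TE46170 and AT3TE51150 carried nearly the levels of AT3G29120 and QQS, rising from 0.470 to 6.50 CPM and from 0.757 to 6.60 CPM on average, and reads counted in both tables cannot be told apart. The 72 lay on all 5 chromosomes, between 4 on chromosome 4 and 19 on chromosome 3.

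The hda9-1 effect was next set beside that of the same allele in Col-0, a contrast that shares no library with the first but the same fit and blocks. That contrast called 1907 genes higher (9.18%) and 1486 genes lower (7.15%). Of the 1570 genes called in the h2a.z-5 background, 956 were called there too, 948 of them in the same direction (60.4% of the calls here and 27.9% of those), 514 higher in both and 434 lower in both, and 8 in opposite directions. A further 575 of the 614 others had the same sign, so that 97.0% of the 1570 did. Their median size was 0.63 here and 0.53 in Col-0. The 1570 genes were chosen for passing here, which by itself favours a larger size here, so no comparison of strength is drawn. Over all 20771 genes the log2 fold changes correlated at Pearson's r = 0.54, a description across genes that share libraries and blocks. The share of same signs over all genes tested is not given, nor are these shares without replicate 3. In replicate 3 of hda9-1 h2a.z-5 and of hda9-1, the 10 most abundant genes took 9.03% and 9.10% of counts, the lowest shares. The part of this in the shared directions was not tested. Shared calls include large changes: NAP rose by 2.51 here and 2.56 in Col-0, AT5G62280 by 2.75 in both, XTH19 fell by 2.11 and 1.95, and MAF5 fell by 3.34 and 2.40.

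**Figure D4:**
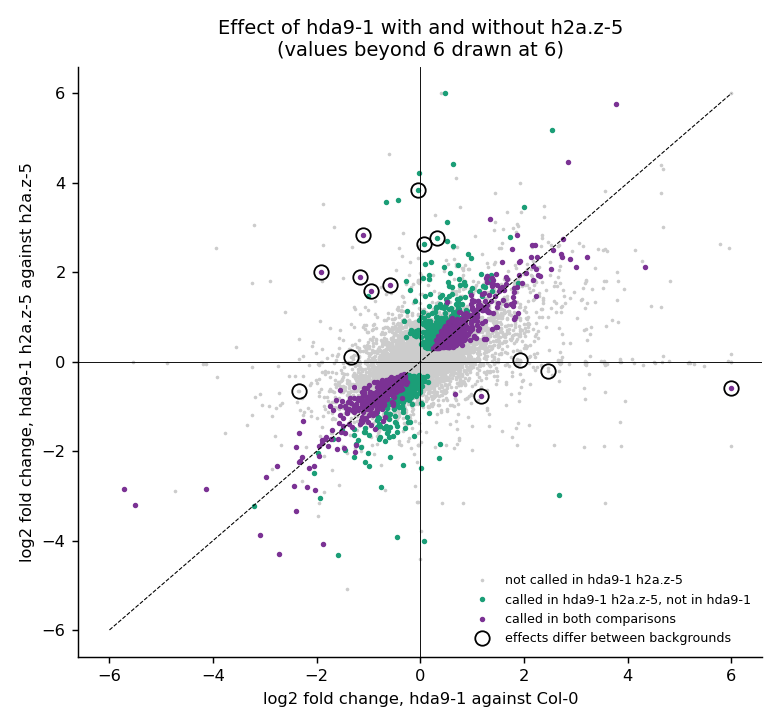
Log2 fold change on adding hda9-1 to h2a.z-5 (y axis) against that on adding it to Col-0 (x axis), 1 point a gene, with values beyond 6 drawn at 6 and the dashed line marking equal effects. Most called genes lie near the line, and the 14 circled genes, whose effects differed by the test of the difference, lie off it.

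A difference between the effects was tested directly. It passed in 14 of 20771 genes (0.0674%) and 2 of 1895 TEs (0.106%), with 1325 genes at an unadjusted p under 0.05; DESeq2 called 46 genes. In 8 of the 14 the combined mutant was called higher than h2a.z-5, in 2 lower, and 4 were not called in that comparison. In 9 of the 14 the mean of h2a.z-5 was under 0.5 times that of Col-0. These counts only describe the 14, since the same levels enter the test that chose them, and the share over all genes is not given. AT3G29120 was at 5.31 ± 0.953 CPM in hda9-1, as in Col-0, so that the effects differed by 3.88 on the log2 scale (SE 0.23, adjusted p = 2.35e-07). AT2G04080 (2.46, SE 0.29, adjusted p = 0.00135) and AT2G40960 (2.57, SE 0.40, adjusted p = 0.0188) were likewise lowest in h2a.z-5. AT2G40960 was at 5.67 ± 0.152 CPM in Col-0, 6.02 ± 0.740 in hda9-1, 1.36 ± 0.285 in h2a.z-5 and 8.82 ± 4.48 in the combined mutant. The non-coding genes AT4G04223 and AT2G05914 fell with hda9-1 in Col-0 and rose with it in h2a.z-5. AT4G04223 went from 43.0, 43.6 and 60.1 CPM in Col-0 to 21.1, 32.3 and 24.6 in hda9-1, and from 6.85, 15.9 and 10.3 in h2a.z-5 to 29.6, 41.4 and 25.2 in the combined mutant. AT2G05914 lies antisense to an annotated gene, and whether the counting used strand is not given in the sources used here. AT3G05955, AT3G05945 and AT2G05665 had the same directions; AT3G05955 for instance averaged 9.56 ± 2.1 CPM in the wild type, 0.118 ± 0.105 CPM with h2a.z-5 and 0.868 ± 0.344 CPM with hda9-1 added to it. The rise of AT2G05665 in h2a.z-5 was lost in 5 of the 6 fits, with adjusted p from 0.0571 to 0.128 in those, and held without hda9-1 h2a.z-5 replicate 2 (0.0209). AT2G05995 fell by 2.35 with hda9-1 in Col-0, and its 3.02, 2.28 and 1.89 CPM in h2a.z-5 overlapped the 2.17, 1.44 and 1.02 CPM of the combined mutant.

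The remaining 5 of the 14, like AT2G05995, had their larger response to hda9-1 in Col-0. EXT3 (AT1G21310), an extensin of the cell wall, was at 6.76, 7.80 and 13.7 CPM in Col-0, 38.0, 32.5 and 31.7 CPM in hda9-1, 7.74, 7.36 and 11.4 CPM in h2a.z-5 and 8.44, 7.27 and 11.5 CPM in the combined mutant. Its effects differed by -1.89 (SE 0.25, adjusted p = 0.00402), and only hda9-1 stood apart. AT5G11330, an oxidoreductase gene, had the mirror order, with 12.9 ± 1.39 CPM in hda9-1 and group means of 32.9 to 38.2 CPM in the other 3 genotypes (1.46, SE 0.14, adjusted p = 0.000224). AT1G75945 was at 0.0624 ± 0.0369 CPM in Col-0 and at 16 ± 2.52, 17 ± 3.83 and 11.2 ± 1.98 CPM in hda9-1, h2a.z-5 and the combined mutant, the widest difference of effects (-8.52, SE 0.38, adjusted p = 7.84e-09). Its fall in h2a.z-5 (log2 fold change -0.60, adjusted p = 0.0477) was lost whichever library was left out, at 0.0571 to 0.179. AT5G35935 was likewise lowest in Col-0, and AT2G32160, a methyltransferase gene, rose in Col-0 by 1.18 and fell in h2a.z-5 by 0.77, the latter call being lost in 5 of the 6 fits (adjusted p between 0.0374 and 0.122 over the 6).

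**Figure D5:**
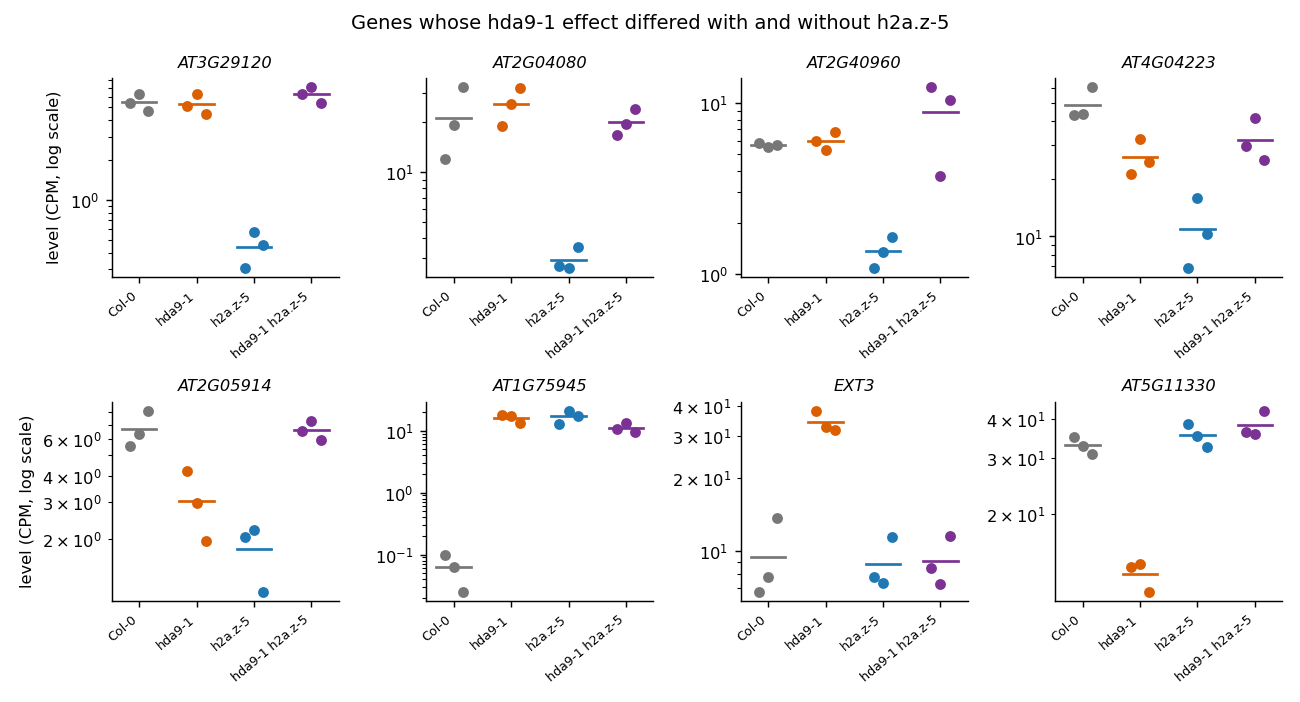
Levels in CPM (log axes) of 8 genes in the libraries of 4 genotypes, with points as libraries and lines as means. AT3G29120, AT2G04080 and AT2G40960 were low in h2a.z-5 alone, EXT3 was high and AT5G11330 low in hda9-1 alone, and AT1G75945 was low in Col-0 alone.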

How the data were processed

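RNA was sequenced from seedlings of 6 genotypes with 3 libraries each. The authors deposited raw read counts per gene and per TE; the submitters' processing notes name TAIR10, while for RNA the sources used here give no aligner, counter or use of strand. The reads carry no known molecular identifiers, so counting intervals cover counting error only. From the counts, edgeR 4.0.16 (R 4.3.3) gave TMM factors, a quasi-likelihood F test with genotype and replicate number as terms, and Benjamini-Hochberg adjusted p-values over all genes passing its expression filter (minimum count 10, minimum total 15) in 18 libraries, or 17 for TEs, which were scaled by the gene table. CPM are counts divided by the library total times its TMM factor. SE is that of the log2 fold change, and values after ± beside CPM are SD over 3 libraries. A fold against a group at 0 uses a floor of 3 counts over the group. All 36632 gene identifiers were matched to TAIR10.1 of RefSeq, which supplied names and upstream windows. The test was tried on simulated data with known changes. The outcome is not given here, and no statement above rests on it.

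Replicate numbers were taken to pair the libraries. Deviations from the genotype means correlated at 0.142 to 0.647 in all 45 same-numbered pairs. In the 3 pairs of the compared groups the values were 0.152 to 0.490. Pairs of different numbers gave -0.565 to 0.286, with a median of -0.240, so the ranges overlapped. Deviations balance out within a genotype, so positive values for same numbers go with negative ones for different numbers. Alternatives were no block, the compared groups alone, RLE scaling, no filter, each library left out and DESeq2 1.42.0. The genes named were the targeted genes, the 14 largest rises and 14 largest falls with at least 1 CPM on average and groups apart, up to 4 called members of each of 28 gene lists by p, up to 10 neighbours on either side of each mutated gene, 5 TEs each way and up to 6 genes each way for the difference of effects. SOC1, FT, FLC, MAF4, YUC8, IAA6, IAA29, HDA6, HDA7, HDA19, HOS15, SAG12, SCR, TPS8, TPS9, TPS10, TPS11, AT2G05665 and AT3G05945 were chosen after values were seen. So were the trehalose phosphate synthase family, the families by annotation or symbol and the window of AT2G04080. The comparison and lists were chosen with earlier results of these data known. The authors' own comparisons against Col-0, the other genotypes' contrasts and the drug-treated libraries were not used here.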

Additional observations from a re-analysis of the deposited data

Results flagged for a closer look

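The effect of hda9-1 differed with and without h2a.z-5, by edgeR's test of the difference at an adjusted p under 0.05, for 14 genes and 2 TEs. Each value below is the log2 effect in h2a.z-5 minus that in Col-0. It was positive for AT2G05665 (3.93), AT3G05955 (3.96), AT3G29120 (3.88), AT2G05914 (3.07), AT2G40960 (2.57), AT4G04223 (2.53), AT2G04080 (2.46), AT3G05945 (2.31), AT2G05995 (1.69) and AT5G11330 (1.46). It was negative for AT1G75945 (-8.52), AT5G35935 (-2.66), AT2G32160 (-1.95) and EXT3 (-1.89). The TE AT3TE46170 (3.86) had nearly the counts of AT3G29120 and AT1TE93275 (-8.33) those of AT1G75945, so that they are not separate observations.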

How the results depend on the processing

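The number of calls depended on the replicate block and on single libraries. Without the replicate block, 133 of 1570 genes passed in the h2a.z-5 background, 363 of 3393 in Col-0, 7 of 14 for the difference, 15 of 72 TEs and 8 of 62 list members. With the compared groups alone these were 4 genes, 2721 genes in Col-0, 8 for the difference, 17 TEs and 1 list member. Leaving out 1 library at a time gave 498 to 1876 genes, 1244 to 2888 genes in Col-0, 10 to 18 for the difference, 24 to 77 TEs and 19 to 71 list members. Without replicate 3 of all 6 genotypes, a setting chosen after seeing the data, there were 715 genes, 25 TEs and 27 list members. DESeq2 called 46 genes for the difference, and 23 TEs passed with all 18 libraries. RLE scaling (1590 genes), no filter (1370) and DESeq2 (2281) stayed within 1.5 times of 1570. Among values for single named genes and TEs under an alternative, 1182 stayed on their side of the threshold. A further 446 kept the direction and lost the threshold, and 3 gained it. No value called as reported or under the alternative reversed. Changes of sign among values called in neither were not counted apart. The causes were not tested.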
